A study of Homo sapiens with 18 samples.

Results

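The replication-dependent histone genes were examined in OVCAR5 cells, an established human ovarian cancer cell line, treated with stearate, oleate or the desaturase inhibitor CAY10566. They were chosen by name: protein-coding genes of GENCODE release 44 whose symbol starts with H2AC, H2BC, H3C or H4C and a number, or is one of H1-1 to H1-5. The name was met by 69 genes, of which 65 had a row in the expression table under their identifier. H2AC18, H2AC19, H3C2 and H3C3 were not analysed here. A mean above 0.5 TPM (transcript abundance scaled for length and to the same total in each sample) over the 18 samples left 38 members of the 60483 genes in the table, and 27 genes had a mean at or under 0.5 TPM. H4C3 lay just inside the limit at 0.638 TPM and H2BC8 just outside at 0.474 TPM, and H2AC1, H2BC10, H3C7, H3C8, H4C6 and H4C7 were listed at 0 in all samples. Because TPM is scaled to transcript length, values of different genes are on a common scale. What share of each gene's RNA entered the libraries is not known, so levels set side by side compare what was measured, not what the cells held.

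The cells were held for 24 h in medium with 5% albumin free of fatty acids, under 6 conditions of 3 replicates each. The 2 control conditions received the solvent DMSO or 1 µM CAY10566, an inhibitor of stearoyl-CoA desaturase 1, the enzyme that turns stearate into oleate. The 2 stearate conditions received 50 µM stearate with DMSO or with 1 µM CAY10566, and the 2 oleate conditions 50 µM oleate with DMSO or with 1 µM CAY10566. The comparisons asked how the saturated and the unsaturated fatty acid, and blocking the step between them, altered the RNA of the cells. The labels did not say whether the replicates were separate cultures, so p-values measure only the spread between these samples.

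Replication-dependent histone genes encode the bulk of the core histones H2A, H2B, H3 and H4 and of the linker histone H1, and they are expressed mainly while DNA is being copied. Their mRNAs are unusual in that most end in a conserved stem-loop rather than in a poly(A) tail, and stem-loop binding protein (SLBP) holds that structure through processing, translation and decay. The genes lie in clusters, many H2A and H2B genes being transcribed away from each other from a shared promoter region. The libraries were made with a kit that selects polyadenylated RNA, so a value here is the level of histone transcript that this selection passed, not the cell's total histone mRNA. In bulk samples, fewer cells in S phase and less histone RNA in each cell cannot be told apart.

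The stem-loop was looked for in annotated transcripts, in the gene's own direction, as GG, any 2 bases, CTT, any base, T, any base, AG, any 2 bases and CC. It was present in 37 of the 38 members, against 187 of 20046 protein-coding genes (0.933%). H2BC12L, a gene on chromosome 21, was the member without it. The sequences below, in the 3′ untranslated region and read from the GENCODE transcripts, are of the members the results turn on. Capitals mark the stem-loop.
H1-2: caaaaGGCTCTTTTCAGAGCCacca
H2AC25: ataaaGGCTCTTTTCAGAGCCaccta
H2AC15: aaaaaGGTTCTTTTCAGAGCCaccta
H2BC12: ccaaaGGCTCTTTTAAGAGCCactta
H2BC4: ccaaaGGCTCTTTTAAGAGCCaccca
H3C10: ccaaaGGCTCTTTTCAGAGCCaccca
H4C11: taaaaGGCCCTTTTCAGGGCCacccta
H4C12: caaaaGGCCCTTTTTAGGGCCccca
H4C16: caaaaGGCCCTTTTCAGGGCCccca
The form seen in H1-2, H2AC25 and H3C10 was the commonest, with 22 members. All 8 H4 members had a stem that opens with GGCC and closes with GGCC, in 5 with the loop letters of H4C11 and in 3 with those of H4C12. The form of H2BC12 and H2BC4 occurred in 4 members, all of them H2B genes. H2AC15 carried a form seen in 1 member.

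Annotated 3′ ends split the members into 3 classes. In 22 members every transcript ended within 100 bases of the stem-loop, in 9 at least 1 transcript ran further, and in 7 none ran further but at least 1 lacked the stem-loop. Of the 9, 2 (H2AC6 and H4C16) also had a transcript without it and were counted among those running further. Members ending at the stem-loop had a median of 1.66 TPM and a sum of 142.6 TPM, those running past it a median of 2.702 TPM and a sum of 67.4 TPM, and the 7 others with a transcript lacking it a median of 1.79 TPM and a sum of 19.7 TPM. The most abundant member, H2BC12, was thus in the class with no annotated transcript past the stem-loop.

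The members summed to 229.8 TPM on average, and H2BC12, H2AC25 and H4C11 held 59.0% of that sum. Of the 38, 8 were above 5 TPM, 22 lay between 1 and 5 TPM and 8 under 1 TPM. On the genome 29 members lay on chromosome 6, 7 on chromosome 1, and 1 each on chromosomes 12 and 21. By family, 11 H2B members held 33.8% of the summed TPM, 11 H2A members 33.2%, 8 H4 members 25.1%, 3 H1 members 5.43% and 5 H3 members 2.51%. H3 was thus the lowest of the core histone families, with H3C2 and H3C3 not analysed. A listed value of 0 occurred in at least 1 sample for 9 members, since 29 were above 0 in all 18 samples.

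**Figure D1:**
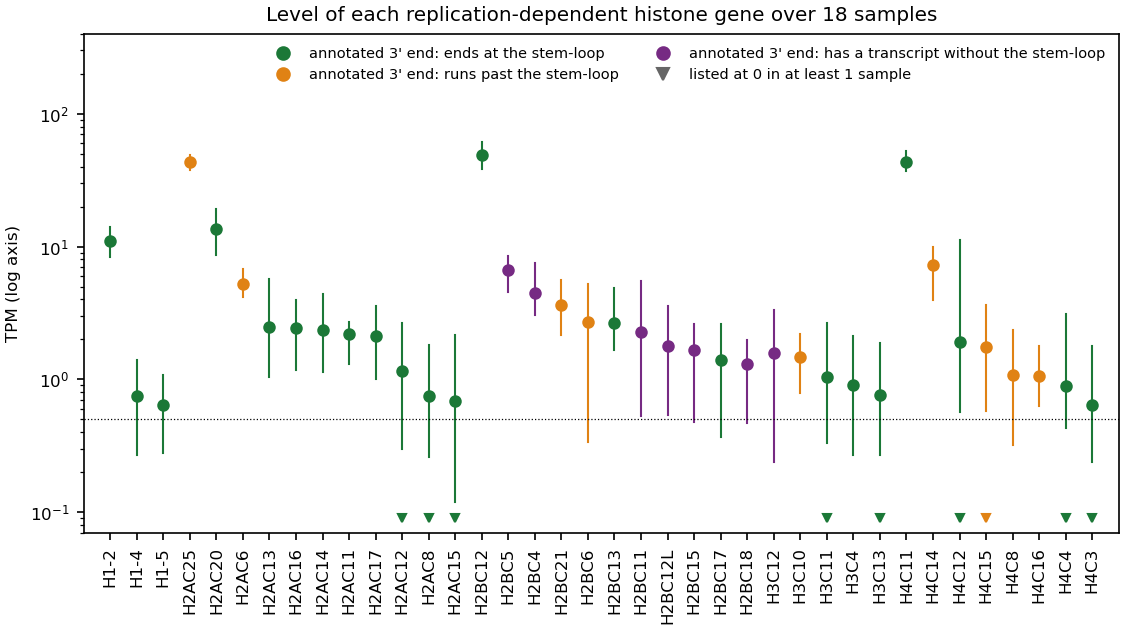
Mean TPM (points, log axis) and range of the values above 0 (lines) of each of the 38 members over 18 samples, ordered by family and level and coloured by annotated 3′ end, with the dotted line at the limit of 0.5 TPM and triangles for members listed at 0 in at least 1 sample. H2BC12, H2AC25 and H4C11 stand above all other members, and most members lie between 1 and 5 TPM.

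Several members share most of their sequence, and reads of such genes were divided between them by the authors' quantification. Windows of 100 bases from all GENCODE transcripts of a member were compared with the transcripts of all other genes: 21 members shared none and 9 shared over 50%. On chromosome 1, H4C15 shared every window with H4C14, and H4C14 shared 94.9% of its windows with H4C15. H4C11 shared 90.7% of its windows with other genes, chiefly H4C12, so the split between those genes is uncertain. Their sum ranged from 36.96 to 53.99 TPM and varied less over the samples (coefficient of variation 9.61%) than H4C11 alone (10.3%) or H4C12 alone (178%). The sum of H4C14 and H4C15 ranged from 5.11 to 11.25 TPM, with a coefficient of variation of 16.9%, against 20.4% for H4C14 and 59.8% for H4C15. H2BC12L shared 98.1% of its windows, most with the gene ENSG00000274559, which was listed at 0 in all samples, and H2BC12 shared 22.5% of its windows with H2BC12L.

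Divergent H2A and H2B neighbours in which both genes are members differed in level from 1.04-fold to 42.1-fold over 7 pairs. This range leaves out pairs whose lower gene fell under the 0.5 TPM limit. Among those, H2AC25 (43.3 TPM) and H2BC26 (0.334 TPM) differed 129.7-fold, H2AC14 and H2BC14 6.85-fold, and H2AC8 and H2BC8 1.58-fold. H2BC12 (ENSG00000197903, chr6:27146361-27146855, minus strand, GRCh38) averaged 49.1 TPM and H2AC12, which starts 250 bases away on the other strand, 1.16 TPM, the widest difference of the 7 pairs of members. H2BC4 (ENSG00000180596, chr6:26086317-26123926, minus strand) averaged 4.46 TPM and its neighbour H2AC6 5.18 TPM, a 1.16-fold difference. H2BC11 and H2AC11 differed 1.04-fold, H2BC13 and H2AC13 1.06-fold, H2AC17 and H2BC17 1.51-fold, H2AC15 and H2BC15 2.43-fold, and H2BC21 and H2AC20 3.70-fold. The H2BC12 and H2BC4 promoters are shown because the H2BC12 pair is the least even of the pairs in which both genes are members, and H2BC4 is called in the tests that follow. Both are RefSeq sequences, from 250 bases before to 50 bases after the start, minus strand, GRCh38.p14, with CCAAT and TATAAA on either strand in capitals.
H2BC12 chr6:27146809-27147108: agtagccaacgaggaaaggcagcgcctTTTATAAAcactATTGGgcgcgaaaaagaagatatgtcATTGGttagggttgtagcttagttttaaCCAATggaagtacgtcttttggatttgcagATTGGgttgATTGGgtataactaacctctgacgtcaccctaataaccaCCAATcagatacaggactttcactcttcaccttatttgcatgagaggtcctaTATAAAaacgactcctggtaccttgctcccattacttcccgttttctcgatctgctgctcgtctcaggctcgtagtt
H2BC4 chr6:26123877-26124176: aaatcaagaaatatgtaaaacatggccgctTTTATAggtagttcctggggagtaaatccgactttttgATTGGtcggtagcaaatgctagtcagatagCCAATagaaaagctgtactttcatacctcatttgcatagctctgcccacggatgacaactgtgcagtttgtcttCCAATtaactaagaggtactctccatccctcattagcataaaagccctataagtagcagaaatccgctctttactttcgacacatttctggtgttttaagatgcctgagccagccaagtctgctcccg
The H2BC12 window spans the whole gap to H2AC12 and held CCAAT 6 times and TATAAA 3 times over both strands, 2 of these overlapping. The H2BC4 window held CCAAT 3 times and TATAAA once. A promoter sequence was matched for 36 members: 29 (80.6%) held CCAAT on either strand, against 34.6% of 35116 RefSeq promoters of the same length, and 25 (69.4%) held TATAAA, against 11.5%. These are matches of letters and not measured binding.

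The labelled cell type was checked first. Epithelial markers were high, with KRT18 at 774.5 TPM and KRT7 at 425.9 TPM, and the ovarian markers WFDC2 and PAX8 were present at 125.0 and 11.8 TPM. Of the 9 ovarian markers listed, 5 had a mean above 0.5 TPM. The 9 together averaged 151.7, 133.9 and 142.2 TPM in control, stearate and oleate, most of it WFDC2. WT1 and MUC16 were near 0 (0.126 and 0.632 TPM), and the intestinal markers CDX2 (3.76 TPM) and KRT20 (1.69 TPM) were present at low level, the highest of 7, the other 5 averaging at most 0.349 TPM. The fibroblast and endothelial marker lists summed to at most 7.52 and 2.39 TPM in any sample, and the 4 leukocyte markers to between 82.4 and 113.4 TPM, nearly all of it CD68 (mean 94.5 TPM), with PTPRC, the pan-leukocyte marker, averaging 0.0056 TPM. KRT18 and KRT7 were lower with stearate than in control (log2 change -0.44 and -0.35, adjusted p = 8.4e-07 and 1.4e-06, limma), and their part in the histone results was not tested. The control library with CAY10566, replicate 3, stood apart from the other controls: 55.2% of tested genes were above their own median over the 18 samples there, against 29.7% to 37.7% in the other 5. Values without it are given beside the control sums, the medians and the members named against control where a call or value turns on it. Size factors over all genes ran from 0.942 to 1.067, and with this rescaling the median change of all genes in oleate against control moved from 0.08 to near 0, and rescaled values are given beside results whose call or separation of groups they change.

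Summed over all members, the 6 control samples lay between 233.2 and 237.0 TPM, with a mean of 235.0 ± 1.56 (SD, n = 6). The stearate samples lay between 230.6 and 241.3 TPM (235.0 ± 4.60, n = 6) and the oleate samples between 208.6 and 229.8 TPM (219.3 ± 7.52, n = 6). Every oleate sample was thus below every control and every stearate sample. After rescaling the means were 243.2, 233.1 and 211.4 TPM, and the highest oleate sample (230.4) then overlapped with both other groups. The lowest control sample on that scale was 227.7 TPM, the library that stood apart. Without it the control mean was 235.3 ± 1.45 TPM (SD, n = 5) as deposited, and the rescaled controls lay between 244.1 and 248.8 TPM, above every sample of the other groups.

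Sums by family are led by 1 gene in all families but H3: H1-2 held 89.7% of the control H1 sum, H2BC12 held 62.9% of the control H2B sum, H2AC25 57.8% of the H2A sum and H4C11 78.4% of the H4 sum. Summed H2B lay between 71.6 and 78.4 TPM in control, 79.7 and 97.1 TPM with stearate and 61.2 and 77.7 TPM with oleate, so that every stearate sample was above every other sample on the deposited scale. After rescaling the groups overlapped, with 74.5 to 81.9 TPM in control, 77.7 to 92.3 TPM with stearate and 59.5 to 77.9 TPM with oleate. The 5 controls without the library that stood apart lay between 71.6 and 77.8 TPM as deposited. Of the H2B sum, H2BC12 averaged 47.6 TPM in control and 54.2 TPM with stearate, and the other H2B genes together 28.0 and 32.6 TPM, where control (26.02 to 30.03 TPM) and stearate (29.24 to 35.70 TPM) overlapped. Summed H2A lay between 78.7 and 83.3 TPM in control, 68.7 and 81.0 TPM with stearate and 67.5 and 79.5 TPM with oleate. Control and stearate H2A sums overlapped, with means of 81.2 ± 2.00 and 73.7 ± 5.00 TPM (SD, n = 6 each). After rescaling the H2A sums lay between 76.9 and 87.5 TPM in control, 66.3 and 79.0 TPM with stearate and 64.2 and 79.7 TPM with oleate, and the 5 controls without the library that stood apart between 81.3 and 87.5 TPM, above every stearate and oleate sample. H2AC25 averaged 46.9, 41.8 and 41.2 TPM of these sums in control, stearate and oleate as deposited, and the other H2A genes together 34.2, 31.9 and 32.5 TPM. The H1, H3 and H4 sums overlapped between all 3 groups, with H4 means of 59.1, 56.2 and 57.9 TPM in control, stearate and oleate. These sums are descriptions, and no test was made on them or on differences between families.

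**Figure D2:**
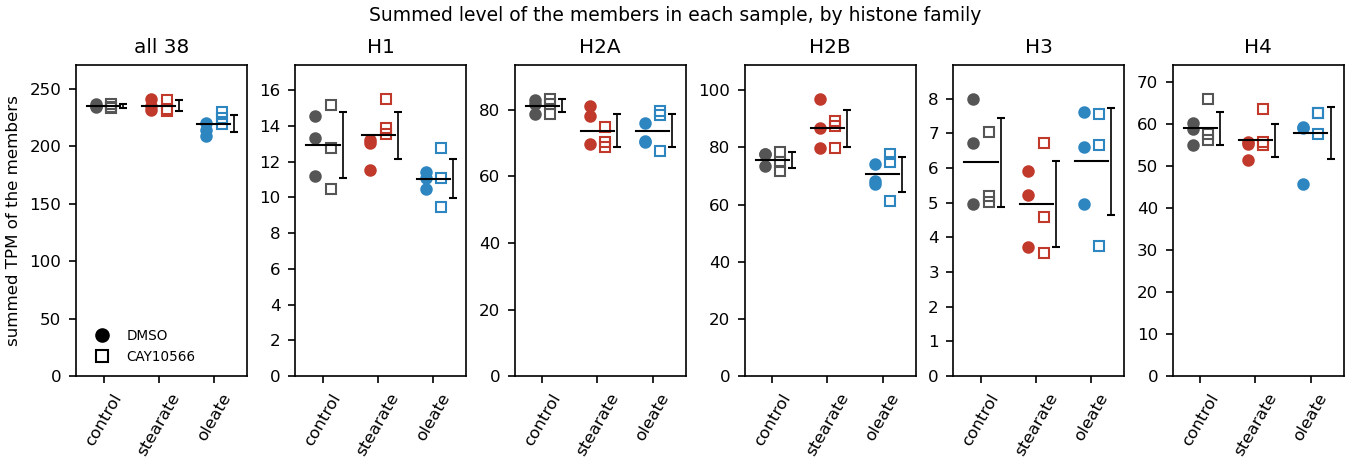
Summed TPM of the members in each of the 18 samples, for all 38 and for each family, with filled circles for DMSO, open squares for CAY10566, horizontal lines for the mean and bars for the SD of 6 samples. The oleate samples lie lowest for all 38 members (208.6 to 229.8 TPM), and the stearate samples lie highest for H2B (79.7 to 97.1 TPM), on the deposited scale. After rescaling both separations are lost.

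Tests were made for each gene on log2(TPM + 1), and a gene was called at an adjusted p under 0.05 with limma and Benjamini-Hochberg adjustment over all 15431 genes tested, and an absolute log2 change over 0.32. Fold changes are on the log2(TPM + 1) scale, which understates the change of low genes. Against control, stearate raised 1 of 38 members and lowered 0, where 3.14% of all tested genes were called higher and 1.81% lower. Oleate raised 0 and lowered 1, where 5.85% of all genes were called higher and 0.428% lower. Between the fatty acids, 1 member was higher and 1 lower with stearate, against 1.47% and 4.46% of all genes. At an unadjusted p under 0.05 there were 5, 6 and 7 members in the respective comparisons (13.2%, 15.8% and 18.4%), against 31.5%, 35.1% and 31.6% of all genes. The stearate and oleate comparisons share the same control samples. Within the DMSO samples alone 2, 0 and 1 members were called (6.45%, 12.6% and 4.22% of all genes called in either direction), and within the CAY10566 samples alone 0, 0 and 0 (2.33%, 0.0583% and 3.58%), with 3, 3 and 4 members at an unadjusted p under 0.05 (7.89%, 7.89% and 10.5%, against 17.9%, 12.7% and 21.3% of all genes).

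The median log2 change of the members was 0.01 for stearate against control, beside 0.06 over all genes, and -0.06 for oleate against control, beside 0.08. It was 0.09 for stearate against oleate, beside -0.03. Without the control library that stood apart the medians were 0.03 for stearate, beside 0.07 over all genes, and -0.03 for oleate, beside 0.09. Over all alternatives run the oleate median lay between -0.14 and -0.02 the stearate median between -0.02 and 0.05, and the median of stearate against oleate between 0.01 (CAY10566 samples only) and 0.17, with 0.06 to 0.12 when each sample was left out. Within a condition the members also spread more than other genes: the median SD on the log2 scale was 0.44 against 0.24 for all genes at 0.5 to 1 TPM, 0.35 against 0.21 at 1 to 5 TPM and 0.15 against 0.11 at 5 to 100 TPM. Changes of low members were therefore harder to detect than those of other genes of their level.

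**Figure D3:**
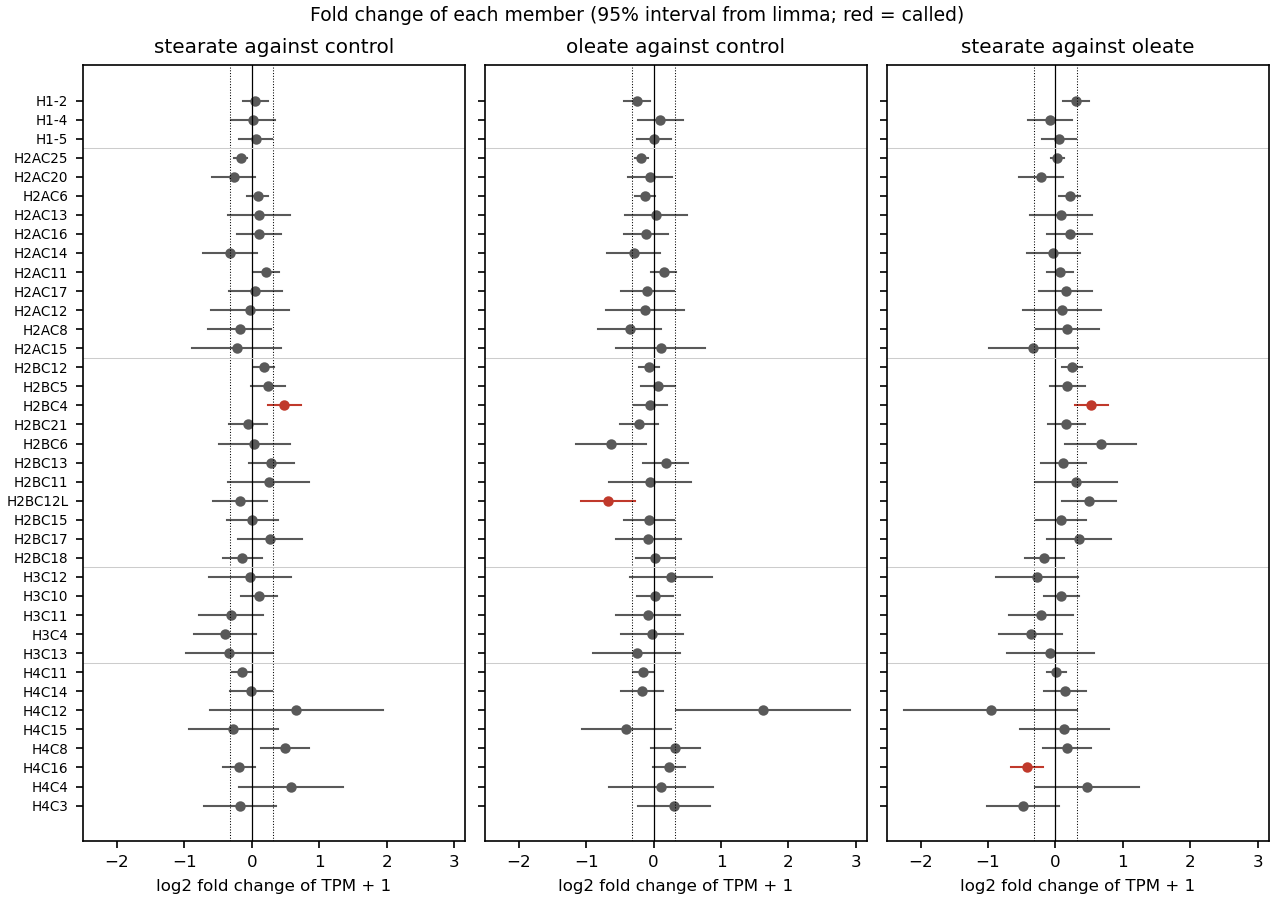
Log2 fold change of TPM + 1 of each of the 38 members in the 3 fatty acid comparisons, with the 95% interval from limma, dotted lines at the limit of 0.32 and called members in red. H2BC4 is called for stearate against both other groups, H2BC12L for oleate against control and H4C16 for stearate against oleate, and the interval of H4C12 is the widest.

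H2BC4, which encodes a core H2B, was the member raised by stearate. Its control values were 3.36, 3.27 and 3.14 TPM with DMSO and 3.71, 4.56 and 5.25 TPM with CAY10566. With stearate they were 7.52, 5.45 and 4.67 TPM in DMSO and 5.72, 5.01 and 6.39 TPM in CAY10566. With oleate they were 3.50, 3.06 and 4.50 TPM in DMSO and 3.48, 4.35 and 3.29 TPM in CAY10566. Every stearate sample was above every oleate sample, and 4 of 6 were above every control sample. The log2 change was 0.48 ± 0.12 (SE) against control (adjusted p = 0.0086, limma; 0.56 and 0.00196 without the control library that stood apart) and 0.53 ± 0.12 against oleate (adjusted p = 0.00387). Within DMSO samples stearate raised it by 0.67 on the log2 scale (adjusted p = 0.0141), and within CAY10566 samples the difference was 0.29 (adjusted p = 0.353). The difference between those effects was -0.38 with a 95% interval from -0.85 to 0.08 (adjusted p = 0.601 for the limma interaction), so it was not shown to depend on the inhibitor. None of the 100-base windows of the 3 annotated H2BC4 transcripts occurs in another gene, and 2 of the 3 lack the stem-loop. Its neighbour H2AC6 ran from 5.16 to 6.77 TPM with stearate and from 4.17 to 5.15 TPM with oleate, without overlap, at a log2 difference of 0.21 that missed the threshold (adjusted p = 0.0503, limma). After rescaling the difference was 0.25, with adjusted p = 0.0223, and under the limit of size.

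H2BC12, the most abundant member and also an H2B gene, followed the same order at a smaller size. Its lowest, median and highest values were 41.54, 48.31 and 50.08 TPM in control, 46.41, 54.37 and 61.35 TPM with stearate and 38.65, 45.84 and 50.63 TPM with oleate. Of 6 stearate samples 5 were above every control sample, and the groups overlapped. Stearate stood above oleate by 0.25 ± 0.07 on the log2 scale (adjusted p = 0.0187, limma), a difference under the limit of size, and above control by 0.18 ± 0.07 (adjusted p = 0.0877). H2BC5, the second H2B by level, had medians of 6.07 TPM in control, 7.70 TPM with stearate and 6.48 TPM with oleate and passed no test (lowest adjusted p = 0.179).

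H2BC12L was lowered by oleate. Its control values were 2.45, 2.06 and 1.44 TPM with DMSO and 1.63, 3.56 and 2.80 TPM with CAY10566, and its oleate values 1.55, 1.60 and 1.02 TPM with DMSO and 0.54, 0.79 and 0.93 TPM with CAY10566. Of 6 oleate samples, 4 were below every control sample. The log2 change was -0.67 ± 0.19 (adjusted p = 0.0188, limma) and -0.63 without the control library that stood apart (adjusted p = 0.0267). It was -0.31 within DMSO (adjusted p = 0.329) and -1.03 within CAY10566 samples (adjusted p = 0.0839), neither of which passed. With stearate it ran from 0.78 to 2.95 TPM. Because nearly all of its windows occur in other genes, the read assignment behind these values is uncertain. H2BC6, another H2B, had medians of 2.86 TPM in control and 1.89 TPM with oleate, at a log2 difference of -0.63 ± 0.25 (adjusted p = 0.0782, limma), and it passed the threshold without the control library that stood apart (-0.78, adjusted p = 0.0203). Its stearate median was 3.30 TPM, and its stearate minus oleate difference of 0.67 ± 0.25 on the log2 scale was the largest of all members in the positive direction without passing the threshold (adjusted p = 0.0697, limma). It passed there without the control library that stood apart (adjusted p = 0.0454) or without stearate with DMSO replicate 2 (0.79, adjusted p = 0.0395), and fell to 0.48 (adjusted p = 0.167) without oleate with DMSO replicate 3.

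H4C16 (ENSG00000197837, chr12:14767999-14771131), an H4 gene outside the histone clusters, separated the fatty acids. It lay between 0.64 and 0.91 TPM with stearate (median 0.77) and between 1.02 and 1.79 TPM with oleate (median 1.38), without overlap, and between 0.63 and 1.53 TPM in control. Stearate stood below oleate by -0.42 ± 0.11 on the log2 scale (adjusted p = 0.0139, limma), and neither fatty acid differed from control beyond the threshold (adjusted p = 0.27 and 0.15). Within CAY10566 samples alone the difference was -0.47 (adjusted p = 0.122) and within DMSO samples -0.38 (adjusted p = 0.208).

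H2AC25 (ENSG00000181218, chr1:228434777-228457873), the leading H2A gene, was lower with both fatty acids by less than the limit of size. Its lowest, median and highest values were 43.77, 48.31 and 48.76 TPM in control, 38.78, 41.72 and 45.75 TPM with stearate and 37.80, 42.06 and 44.08 TPM with oleate. For each fatty acid, 5 of 6 samples were below every control sample. The log2 differences were -0.16 ± 0.05 (adjusted p = 0.0218, limma) and -0.19 ± 0.05 (adjusted p = 0.00957), after rescaling -0.22 and -0.29, and without the control library that stood apart -0.18 and -0.20. H2AC20, next in level, had medians of 14.7, 11.4 and 14.6 TPM in control, stearate and oleate (adjusted p = 0.246 for stearate against control).

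The linker histone H1-2 was the highest H1 gene. It ran from 9.45 to 13.08 TPM in control (median 11.8), from 9.67 to 14.06 TPM with stearate (median 11.9) and from 8.31 to 11.15 TPM with oleate (median 9.45), and the groups overlapped. Stearate stood above oleate by 0.30 ± 0.09 (adjusted p = 0.0255, limma), just under the limit of size. After rescaling it was called lower with oleate against control (-0.34, adjusted p = 0.0169), where it missed the threshold as deposited (-0.25, adjusted p = 0.0547), and higher with stearate than with oleate (0.34, adjusted p = 0.0128). H1-4 stayed between 0.27 and 1.40 TPM with no test passed.

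**Figure D4:**
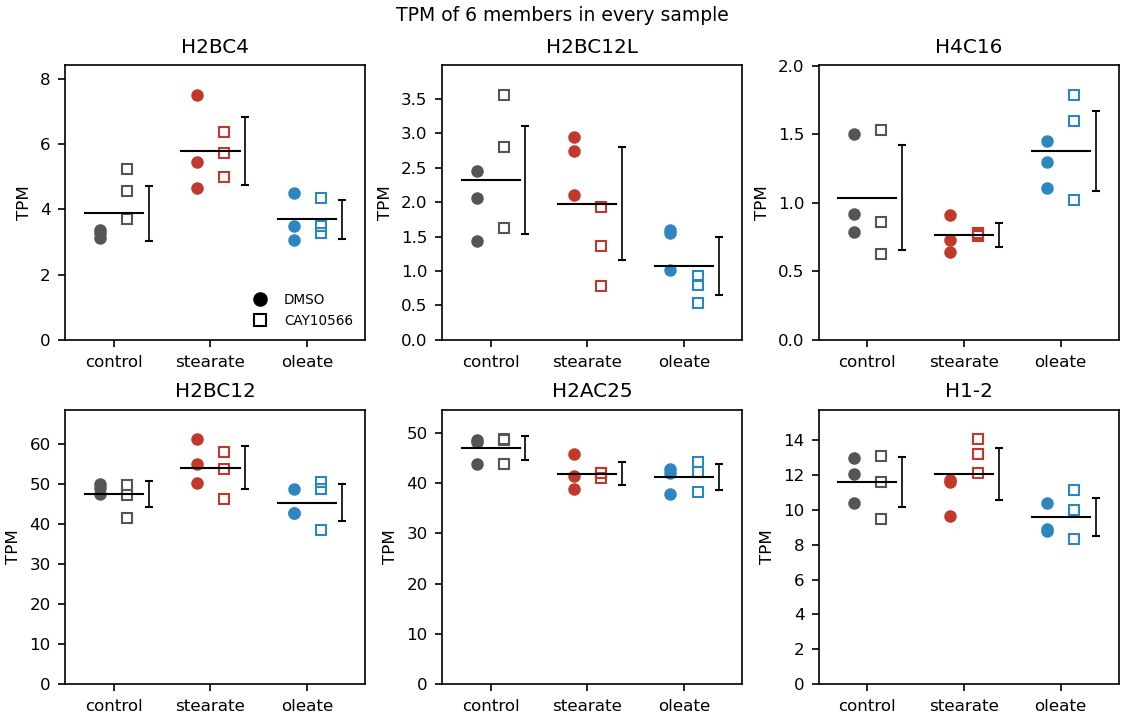
TPM in every sample of 6 members, with filled circles for DMSO, open squares for CAY10566, horizontal lines for the mean and bars for the SD of 6 samples. H2BC4 in stearate (4.67 to 7.52 TPM) lies above all oleate values, H4C16 in stearate (0.64 to 0.91 TPM) below all oleate values, and the remaining members overlap between some groups.

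Among the other H4 genes, H4C11 had medians of 46.0 TPM in control, 41.1 TPM with stearate and 40.9 TPM with oleate (adjusted p = 0.16 and 0.108, limma). After rescaling the oleate difference of H4C11 was -0.26, with adjusted p = 0.0271 and under the limit of size. H4C12 was listed at 0 in 11 samples. In control it was 0 in 5 samples and 0.57 TPM in the CAY10566 library that stood apart, with stearate 2.39 and 6.20 TPM in 2 samples and 0 in the others, and with oleate 8.24, 4.78, 11.27 and 1.02 TPM in 4 samples and 0 in 2. No fold is given against a group listed at 0 in nearly all samples, and the test did not call it for oleate (adjusted p = 0.0649, limma, and 0.0551 without the control library that stood apart). H4C11 and H4C12 summed to 46.4 ± 3.47 TPM in control (42.6 to 52.4), 43.2 ± 3.58 TPM with stearate (39.1 to 49.8) and 45.6 ± 5.70 TPM with oleate (37.0 to 54.0; SD, n = 6 each), and after rescaling to means of 48.0, 42.9 and 43.9 TPM. The groups overlapped on both scales, and no test was made on the sum. H4C8 had medians of 0.72 TPM in control and 1.39 TPM with stearate, at a log2 difference of 0.49 ± 0.17 (adjusted p = 0.0547, and 0.0742 without the control library that stood apart). H4C14 ran from 3.96 to 9.91 TPM over the samples. Neither of the H3 genes with the highest levels was called: H3C12 lay between 0.24 and 3.31 TPM and H3C10 between 0.79 and 2.19 TPM.

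CAY10566 changed 0 members over 9 against 9 samples, and 0 of all 15431 genes (0%). At an unadjusted p under 0.05 there were 2 members (5.26%) beside 832 genes (5.39%). The members with the largest log2 differences were H4C4 (0.44 ± 0.29, adjusted p = 0.977, limma), H4C3 (0.41 ± 0.19, adjusted p = 0.912) and H2BC11 (0.37 ± 0.23, adjusted p = 0.977). H4C4 was listed at 0 in 7 samples and H4C3 in 3, and H4C3 was 0 in every stearate sample with DMSO but 0.57, 1.77 and 0.26 TPM in those with CAY10566. H2BC11 ran from 0.53 to 5.52 TPM. Within a single fatty acid group CAY10566 likewise changed 0 members, where it changed 0% of all genes with no fatty acid, 0.00648% with stearate and 0% with oleate. Members at an unadjusted p under 0.05 numbered 4, 3 and 2 (10.5%, 7.89% and 5.26%, against 9.62%, 5.42% and 4.74% of all genes). The limma interactions of CAY10566 with stearate and with oleate called 0 members (0.00648% and 0% of all genes), with 3 members each at an unadjusted p under 0.05 (7.89%, against 8.85% and 9.8% of all genes).

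**Figure D5:**
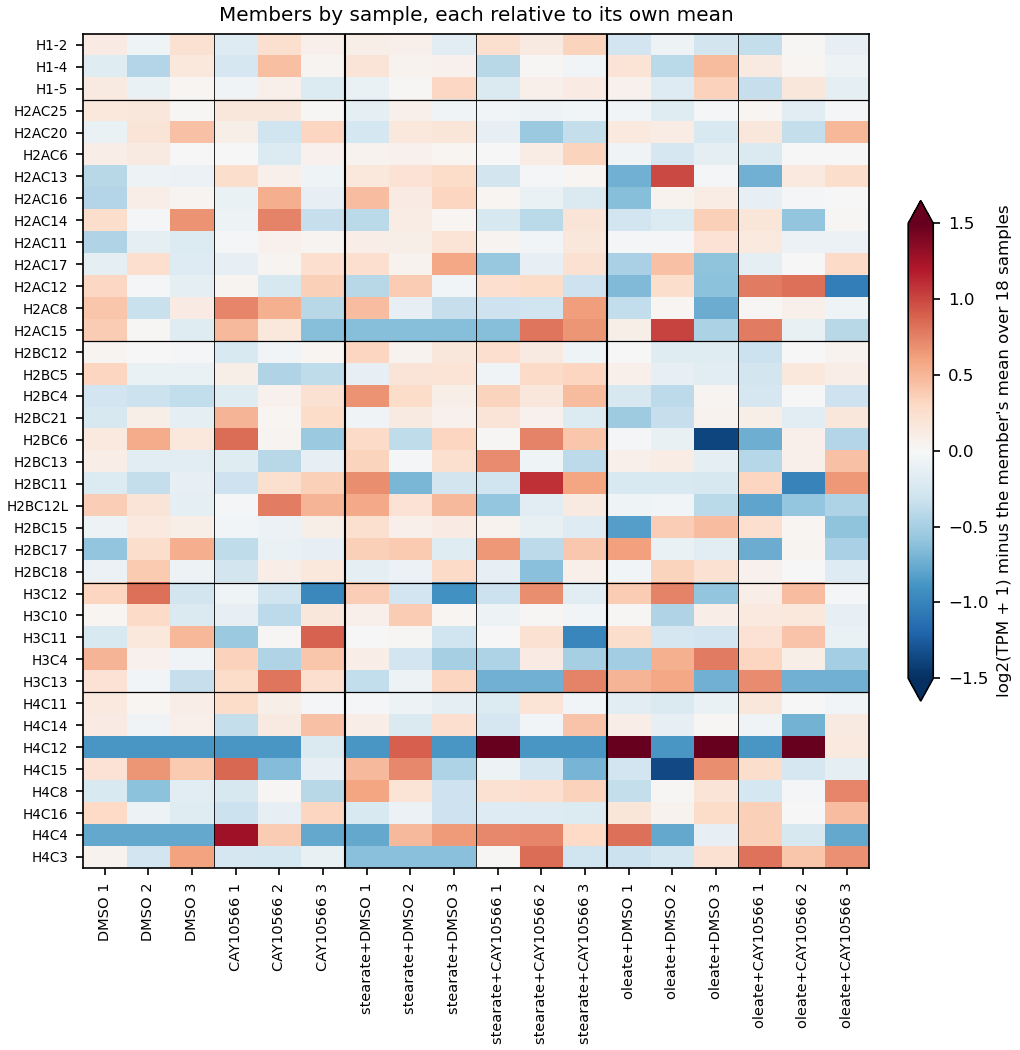
Difference of log2(TPM + 1) from each member's mean over 18 samples, with members in rows by family and level, samples in columns by condition, and red above and blue below the mean on a scale cut at 1.5. Rows of low members such as H4C12, H4C4 and H2AC15 change from sample to sample within a condition, and the rows of H2BC12, H2AC25 and H4C11 stay pale.

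Other genes of the histone pathway were listed with earlier results known. Beside their counts, 17.1% of all tested genes passed the adjusted p alone with stearate and 22.3% with oleate against control. Called higher were 3.14% of all genes with stearate and 5.85% with oleate, and called lower 1.81% and 0.428%. Of 11 replication-independent histone variants, whose mRNAs carry poly(A) tails (those of H2AX end in either a tail or a stem-loop), 0 were called against control by either fatty acid though 5 with stearate, all higher, and 4 with oleate, 2 higher and 2 lower, passed the adjusted p alone. Between the fatty acids 6 of the 11 (54.5%) were higher with stearate at the adjusted p alone, against 5.96% of all genes, and 1, the linker histone H1-10, was called higher with stearate than with oleate (mean 115.3 against 84.0 TPM, log2 difference 0.45, limma). That call was 9.09% of the variants, against 1.47% of all genes. The variants summed to 3073 to 3156 TPM in control, 3222 to 3439 TPM with stearate and 3022 to 3146 TPM with oleate, so that every stearate sample was above every other sample as deposited. After rescaling stearate (3174 to 3450 TPM) overlapped with control (3038 to 3297 TPM) and stayed above oleate (2918 to 3064 TPM). The H2A variant H2AZ1 differed by 0.17 on the log2 scale for stearate against control, with adjusted p = 0.00101 (limma) and under the limit of size. Of 18 genes of histone mRNA 3′ end processing and decay, 0 were called in either comparison with control, and 4 with stearate and 5 with oleate, all higher, passed the adjusted p alone. Their largest differences were SRRT (0.23) and TUT7 (0.22) with stearate and CASP8AP2 (0.27) and UPF1 (0.25) with oleate. SLBP itself lay between 60.8 and 75.0 TPM in all samples. Of 10 histone gene transcription factors, POU2F1 was called higher with oleate (0.33) and 0 with stearate, with 4 and 1 passing the adjusted p alone. NPAT, the coactivator of the histone locus body, averaged 6.20 TPM and was not called. Of 15 histone chaperones, ATRX was called higher with oleate (0.34) and 0 with stearate, and 9 with oleate and 1 with stearate passed the adjusted p alone. The calls with oleate were 10% of the transcription factors and 6.67% of the chaperones, against 5.85% of all genes called higher.

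Of 37 S phase cyclin and DNA replication genes, 4 were higher with stearate against control, among them CCNE2 (0.67), a cyclin of S phase entry, and CDC6 (0.41), which loads the replicative helicase, and 3 were higher with oleate, among them GINS4 (0.54) and CDC25A (0.49). These were 10.8% and 8.11% of the list, where 3.14% and 5.85% of all genes were called higher. At the adjusted p alone 16 were higher with stearate (11.8% of all genes), and 19 were higher and 1 lower with oleate (20% and 2.34% of all genes). None of the 37 was called lower with limma in either comparison. Of 20 genes of G2 and mitosis, 0 were called against control, and 5 with stearate (2 higher, 3 lower) and 4 with oleate (3 higher, 1 lower) passed the adjusted p alone. The median log2 change of the replication genes was 0.13 with stearate and 0.15 with oleate, where that of the histone members was 0.01 and -0.06. Over all tested genes it was 0.06 and 0.08.

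RNAs that lack a poly(A) tail, which the selection acts against, were summed in each library. Of 17 listed, 16 had a row, 4 of them at 0 in all samples. Their sum ran from 146.0 to 283.1 TPM in control, 172.4 to 339.3 TPM with stearate and 206.7 to 728.2 TPM with oleate, where the highest sample was oleate with DMSO replicate 3. Of 8 tested, 1 (12.5%) was called with oleate, against 5.85% of all genes called higher: RN7SL2, of the signal recognition particle (0.96, adjusted p = 0.025, limma). Without that oleate library its difference was 0.67 (adjusted p = 0.0431), and after rescaling it was 0.86 and missed the threshold (adjusted p = 0.0507). Without the control library that stood apart 2 of the 8 were called, RN7SL2 (1.11, adjusted p = 0.00815) and RN7SL1 (0.75, adjusted p = 0.0291). In that fit 9.78% of all genes were called higher with oleate. This sum was highest where the summed histone level was lowest, in the oleate group. It was also higher with CAY10566 than with DMSO in control (216.2 to 283.1 against 146.0 to 168.2 TPM) and with stearate (245.6 to 339.3 against 172.4 to 219.5 TPM). There the histone sums with CAY10566 and with DMSO overlapped. With oleate the sums of these RNAs overlapped between CAY10566 and DMSO. Their part in the histone result was not tested. The 13 mitochondrial mRNAs had mean sums of 55154 TPM in control, 52839 TPM with stearate and 49850 TPM with oleate, the groups overlapping, and the lowest sample (35554 TPM) was again oleate with DMSO replicate 3. Of the 13, 0 passed the adjusted p against control (limma), their median log2 change with oleate was -0.19 with 12 below 0, and their part in the histone result was not tested. Without that oleate library the called members were H2BC4 against control with stearate, H2BC12L with oleate, and H2BC4 and H4C16 between the fatty acids. Of all genes, 3.1%, 4.66% and 1.43% were then called higher in the respective comparisons, and 1.8%, 0.382% and 3.71% lower.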

How the data were processed

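RNA of 18 OVCAR5 samples was measured with stranded libraries of polyadenylated RNA and paired reads of 100 bases. The authors trimmed reads with Trim Galore, aligned them to GRCh38 (Ensembl release 99) with STAR 2.7.1a and quantified genes with RSEM, which divides reads shared by similar genes. The deposited values are TPM per gene. TPM keeps no depth, so precision comes only from the spread between replicates. 1 line that names no gene was left out.

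Groups came from the sample labels. Symbols, coordinates and stem-loops came from GENCODE release 44 (56321 identifiers, 93.1%, matched) and promoters from RefSeq. Genes with a mean above 0.5 TPM were tested with limma 3.58.1 (R 4.3.3, trend) on log2(TPM + 1), adjusted by Benjamini-Hochberg and called at FDR 0.05 and an absolute log2 change over 0.32. Stearate, oleate and control were compared as 6 samples each, and CAY10566 with DMSO as 9 against 9 with fatty acid as covariate, and a model of 6 conditions gave effects within groups and interactions. The script was tested on simulated data. Figures used matplotlib 3.10.9. The members and lists were chosen with earlier results of these data known. Named were members called or at FDR under 0.05, the 2 highest per family, the 3 with the largest change per comparison and those next to the 0.5 TPM limit. Alternatives were another pseudocount and filters, median-of-ratios rescaling, DMSO or CAY10566 samples alone, a replicate block and leaving out each sample.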

Additional observations from a re-analysis of the deposited data

Results flagged for a closer look

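In groups of 6 samples under the same fatty acid, 63 sets of values were searched for a sample far from the others, and 7 were found, where chance gives about 1 in 20. H2BC12 was 41.54 TPM in the control with CAY10566 replicate 1, against 47.44 to 50.08 TPM in the other controls. H3C10 was 2.19 TPM with stearate and DMSO replicate 2, against 1.33 to 1.58 TPM. H4C12 was 0.57 TPM in the control with CAY10566 replicate 3 and listed at 0 in the other controls. H4C14, which shares 94.9% of its 100-base windows with H4C15, was 3.96 TPM with oleate and CAY10566 replicate 2, against 6.42 to 7.89 TPM. H4C3 was 1.36 TPM in the DMSO control replicate 3, against 0.27 to 0.61 TPM, and 1.77 TPM with stearate and CAY10566 replicate 2, against 0 to 0.57 TPM. The summed RNAs without a poly(A) tail were 728.2 TPM with oleate and DMSO replicate 3, against 206.7 to 376.7 TPM in the other oleate samples.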

How the results depend on the processing

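TPM holds no read depth, so how much of the spread of low members is counting error is unknown. The counts of called members rest on 1 or 2 genes. With a mean of at least 5 TPM, 8 members were tested and 0 were called in each fatty acid comparison, since H2BC4, H2BC12L and H4C16 lie under that level. With DMSO samples only, 2 members were called for stearate against control (H2BC4 and H2AC11), 0 for oleate against control and 1 for stearate against oleate. With CAY10566 samples only the count was 0 in all 3 comparisons. Of all genes, 6.45%, 12.6% and 4.22% were called in the respective comparisons with DMSO samples only. With CAY10566 samples only these shares were 2.33%, 0.0583% and 3.58%. Median-of-ratios rescaling gave 2 for oleate against control (H2BC12L and H1-2) and moved the mean summed TPM from 235.0 to 243.2 in control and from 219.3 to 211.4 with oleate. Leaving out 1 sample gave 1 to 2 calls for stearate against control, 1 to 2 for oleate against control and 2 to 3 for stearate against oleate. The shares of all genes called moved too. Without the CAY10566 control replicate 3, 5.29% were called higher and 1.88% lower with stearate, against 3.14% and 1.81% in the full fit. For stearate against oleate they were 1.59% and 4.7%, against 1.47% and 4.46%. H4C8 was added for stearate without the CAY10566 control replicate 2, stearate with DMSO replicate 3, oleate with DMSO replicate 1 or oleate with CAY10566 replicate 3. H2BC6 was added for oleate without the CAY10566 control replicate 3. In that fit 9.78% of all genes were called higher and 0.642% lower with oleate, against 5.85% and 0.428% in the full fit. H4C12 was added for oleate, as higher, without stearate with CAY10566 replicate 1, oleate with DMSO replicate 2 or oleate with CAY10566 replicate 1. For stearate against oleate, leaving out 1 sample added H2BC6, H1-2, H2BC12L or H4C3, 1 at a time in 7 of 18 cases. The causes were not tested. The log2 change of H2BC4 stayed between 0.41 and 0.56 and that of H2BC12L between -0.76 and -0.58 when each sample was left out. CAY10566 comparisons gave 0 under every alternative run.

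Samples with the same replicate number showed little shared deviation (45 pairs, correlation -0.16 to 0.10, median 0.011, against -0.008 for other numbers). Of the 18 samples, 8 correlated best with their own number. Such correlations cannot show whether equal numbers were handled together, and the main fit did not pair samples. With a replicate block the counts stayed 1, 1 and 2.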
